A study of Mus musculus with 18 samples.

Results

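The effect of ertugliflozin (ERTU) on the left ventricle of wild-type (WT) mice was measured by RNA sequencing as the difference between 5 libraries from WT mice fed ERTU (WT ERTU) and 4 libraries from WT mice fed a control diet (WT CD). These are the 9 WT libraries among the 18 of the series, and the comparison was made across all genes of the count table. The mice were male, of the FVB/N strain, and littermates of mice with heart-specific overexpression of Gαq, a G protein subunit encoded by Gnaq. The treated WT mice received chow with 0.5 mg ERTU per g for 16 weeks, from an age of 4 weeks to 20 weeks, and the untreated WT mice received chow without the drug. The other 9 libraries, from Gαq mice on either diet (5 Gαq CD and 4 Gαq ERTU), entered the same model and are used here only to set the WT values beside those of a failing heart. WT mice carry no transgene and no disease, so the comparison asks what the drug does to gene expression in a healthy ventricle. Libraries are named by group and by the number that the table's columns give them, which is not the replicate number of the labels.

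ERTU inhibits SGLT2, the sodium-glucose cotransporter through which the kidney takes up most filtered glucose. Its inhibition sends glucose into the urine, lowers insulin and raises the use of fat and ketone bodies, a state with features of fasting. Heart muscle takes most of its ATP from the oxidation of fatty acids in mitochondria, and the nuclear receptor PPARα, which fatty acids bind, controls many genes for fatty acid uptake, oxidation and ketone formation. The lists below therefore follow fuel from its entry into the cell to the respiratory chain, and then turn to matrix, immune, stress and growth genes.

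No gene passed the test in the WT ventricle. Of 55450 genes in the table, 16270 had enough reads to be tested with edgeR's quasi-likelihood test, and 0% of them (0 genes) had a Benjamini-Hochberg adjusted p under 0.05. The smallest adjusted p was 1.00. DESeq2 and limma voom also called 0 genes. At an unadjusted p under 0.05 there were 365 genes (2.24%), of which 131 were higher (0.805%) and 234 lower (1.44%) with ERTU, against 813.5 that evenly spread p values would give. DESeq2 gave 449 of 30758 genes tested and limma voom 482 of 16270 at that level. Fold changes were small. The median log2 fold change over all tested genes was 0.01, the median of its size was 0.0934, and 51.5% of genes were higher.

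The precision of these estimates differed between genes. The median standard error (SE) of a log2 fold change was 0.155 over all tested genes and 0.136 over the 13041 genes with a mean of at least 1 on the log2 scale of CPM (counts scaled to a common library size). For 13905 genes (85.5%) the 95% interval lay inside a 2-fold change in either direction, and for 10723 (65.9%) inside a 1.5-fold change. Among the better measured 13041 genes, 97.2% had an interval inside 2-fold.

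**Figure D1:**
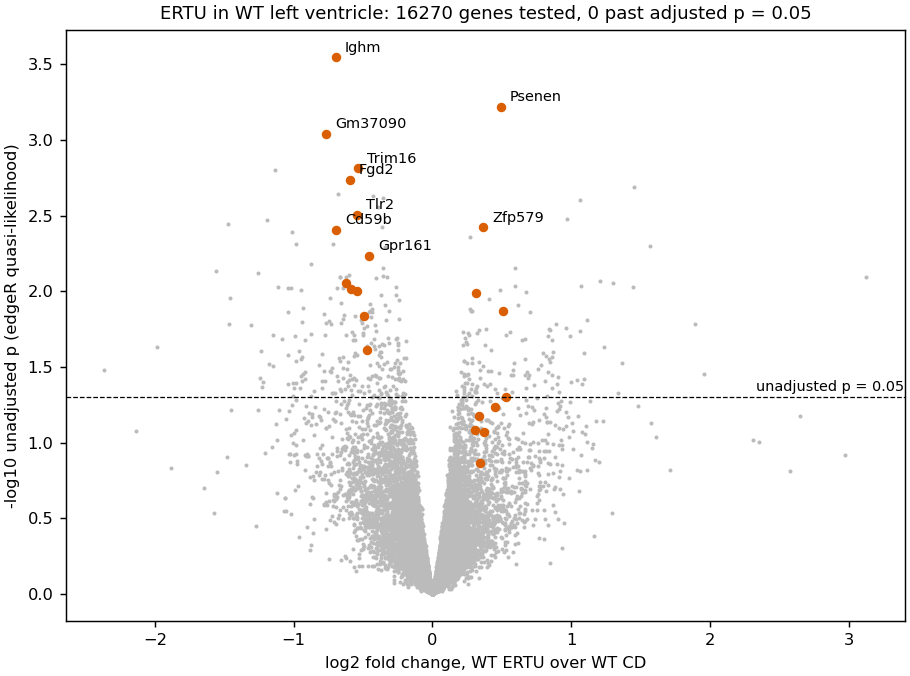
Each grey point is 1 of the 16270 genes tested, with the log2 fold change of WT ERTU over WT CD on the x axis and the negative log10 of the unadjusted p on the y axis. Orange points are the genes named for the smallest p or for groups that do not overlap, and the dashed line marks an unadjusted p of 0.05, above which lie 365 genes, with Ighm highest.

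The 9 libraries held 15383566 to 18834963 counted read pairs each, and WT CD and WT ERTU overlapped in depth. Pairs of libraries from the same group correlated at 0.973 to 0.987 over tested genes and pairs from different groups at 0.970 to 0.987. Gnaq lay at 45.6 to 209 CPM in WT CD and 45.5 to 230 CPM in WT ERTU, against 1641 to 11672 CPM in Gαq CD and 2236 to 5207 CPM in Gαq ERTU, in keeping with the genotype labels in every library. Markers of cardiomyocytes summed to 76050 to 104963 CPM in WT CD and 69129 to 100777 CPM in WT ERTU. Markers of atrial muscle varied by library in both groups. Myl7, the atrial myosin light chain, was at 23.0, 0.456, 0.347 and 78.2 CPM in WT CD 1, 2, 4 and 5. It was at 0.600, 0, 30.1, 78.5 and 2.38 CPM in WT ERTU 11 to 15. WT CD 1 and 5 and WT ERTU 13 and 14 thus carried atrial transcripts at levels far above those of the other WT libraries.

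The drug's own target was almost absent from these ventricles. Slc5a2, the gene of SGLT2, had 6, 5, 2 and 1 reads in WT CD and 1, 2, 2, 2 and 3 reads in WT ERTU, too few for the model. The groups overlapped, with a 2-sided exact permutation p of 0.222, where the smallest possible p is 0.00794. Slc5a1, which encodes the related transporter SGLT1, was low but detected, at 30, 33, 21 and 18 reads in WT CD and 45, 36, 19, 59 and 7 reads in WT ERTU. Its log2 fold change was 0.32 with an interval from -0.90 to 1.54. Slc2a4, the insulin-responsive glucose transporter GLUT4, had a log2 fold change of 0.06 (SE 0.17), and Slc2a1, the basal transporter GLUT1, of 0.23 (SE 0.17). Of 16 tested genes of glucose and sodium transport, 14 were higher and the median log2 fold change was 0.07, with 0.04 to 0.12 in the fits without 1 library.

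Genes for the uptake and oxidation of fatty acids were mostly higher with ERTU, by small amounts and with none called. All 32 fatty acid oxidation genes had a positive log2 fold change, with a median of 0.11 beside 0.01 over all genes. Of 21 genes for fatty acid uptake and lipid droplets 19 were higher, with a median of 0.24. The values of Acad11, an acyl-CoA dehydrogenase, were 381, 360, 330 and 303 CPM in WT CD and 427, 409, 378, 410 and 421 CPM in WT ERTU. WT ERTU 13 lay just below the highest untreated library, and the log2 fold change was 0.25 (SE 0.11, interval 0.02 to 0.49). Ehhadh, the peroxisomal bifunctional enzyme, had the largest value of the list at 0.50 (SE 0.24). Cpt1b, the muscle form of the enzyme that admits fatty acids to mitochondria, was at 16.3, 20.6, 8.34 and 14.1 CPM in WT CD and 22.1, 17.3, 17.1, 12.5 and 12.8 CPM in WT ERTU. Its groups overlapped broadly.

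The PPARα targets showed which libraries set these values. Of 28 listed, 23 could be tested, all 23 were higher and the median log2 fold change was 0.21, again with none called. Pdk4, the kinase that turns off pyruvate dehydrogenase when fat is burned, was at 3976, 3504, 166 and 3500 CPM in WT CD 1, 2, 4 and 5. It was at 6869, 4200, 3194, 3093 and 1677 CPM in WT ERTU 11 to 15. WT CD 4 was far below every other library, and the other 3 untreated libraries lay within the treated range. The log2 fold change of 0.45 had an interval from -1.16 to 2.06, and without WT CD 4 it was 0.06.

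Angptl4, a secreted inhibitor of lipoprotein lipase, was also lowest in WT CD 4. It lay at 62.3, 73.5, 1.91 and 89.6 CPM in WT CD and at 95.1, 79.8, 106, 84.6 and 40.7 CPM in WT ERTU. Ucp3, a mitochondrial carrier that rises in fasting, lay at 229, 240, 23.1 and 187 CPM in WT CD and at 257, 220, 175, 123 and 117 CPM in WT ERTU. Ucp3 too was lowest in WT CD 4. Without it the log2 fold change of Angptl4 went from 0.52 to 0.12 and that of Ucp3 from 0.07 to -0.29.

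The promoters of Pdk4 and Ucp3 are shown because these PPARα targets varied widely between WT libraries. Capitals mark AGGTCA, the core sequence that PPARα and many other nuclear receptors recognise, or its reverse complement TGACCT. The sequences run 5′ to 3′ along the gene from 250 bases before to 50 bases after the RefSeq start, in build GRCm38.p6, with Pdk4 at chr6:5496229-5496528 on the minus strand and Ucp3 at chr7:100472741-100473040 on the plus strand.
Pdk4: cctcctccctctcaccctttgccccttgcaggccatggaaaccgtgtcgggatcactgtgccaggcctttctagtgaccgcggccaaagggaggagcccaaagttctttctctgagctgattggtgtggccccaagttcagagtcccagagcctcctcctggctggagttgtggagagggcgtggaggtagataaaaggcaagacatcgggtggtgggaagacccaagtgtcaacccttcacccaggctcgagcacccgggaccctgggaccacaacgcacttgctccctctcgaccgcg
Ucp3: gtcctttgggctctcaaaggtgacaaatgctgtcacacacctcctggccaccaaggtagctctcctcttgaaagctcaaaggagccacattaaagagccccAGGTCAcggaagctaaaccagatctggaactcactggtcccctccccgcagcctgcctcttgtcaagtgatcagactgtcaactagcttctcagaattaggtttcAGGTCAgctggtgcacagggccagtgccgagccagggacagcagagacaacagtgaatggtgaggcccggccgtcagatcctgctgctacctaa

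The Ucp3 window holds AGGTCA 2 times and the Pdk4 window holds neither form. Of the 28 PPARα targets, 20 had a window of 300 bases in the RefSeq table, with 23 windows in all. At least 1 window of 6 genes (30.0%) held the motif on either strand: Acadm, Cpt1a, Creb3l3, Plin2, Plin5 and Ucp3. Over all 27025 genes with a window the share was 18.1%. A match of these letters is a description of the window, not a binding site.

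**Figure D2:**
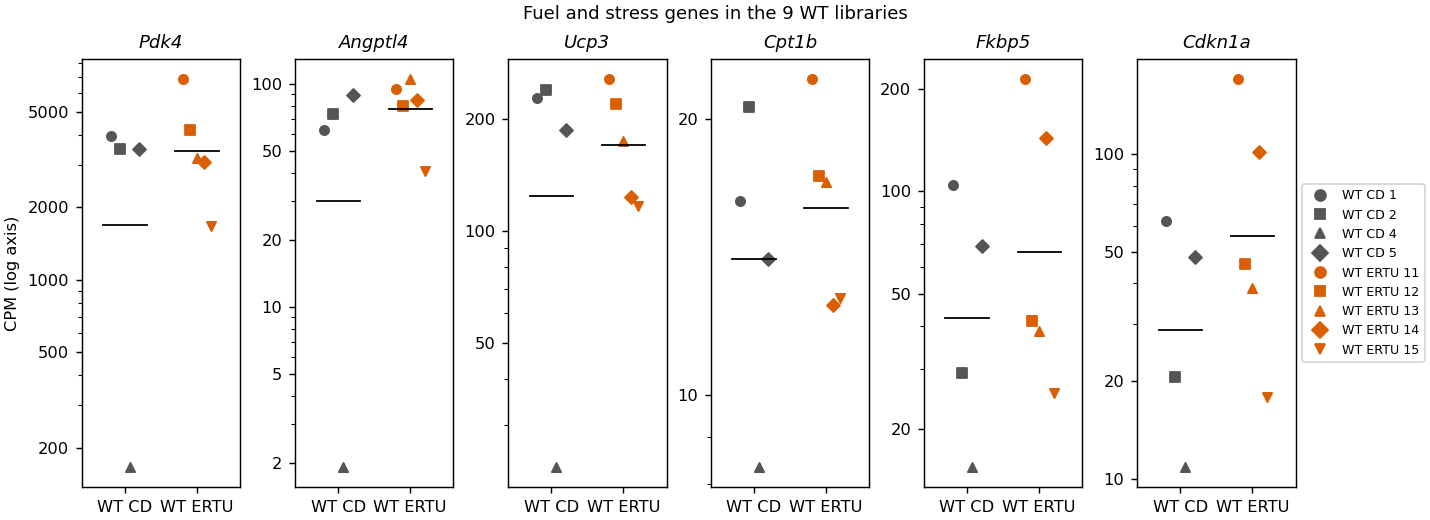
CPM on a log axis of 6 genes in each of the 4 WT CD libraries (grey) and 5 WT ERTU libraries (orange), with a bar at the geometric mean of the group and a symbol for each library. WT CD 4 (grey triangle) is the lowest library in each panel, at 166 CPM for Pdk4 and 1.91 CPM for Angptl4.

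These lists shifted when WT CD 4 or WT ERTU 11 was left out. Without WT CD 4 the median of the PPARα targets went from 0.21 to 0.05 and the number higher from 23 to 15 of 23, and without WT ERTU 11 they were 0.13 and 19. For fatty acid oxidation the median went from 0.11 to 0.05 with 23 of 32 higher without WT CD 4, and to 0.07 with 28 higher without WT ERTU 11. For uptake and lipid droplets it went from 0.24 to 0.10 and 0.11, each time with 17 of 21 higher. Other fits raised these medians. Without WT ERTU 15 they were 0.35 for the PPARα targets and 0.32 for uptake and lipid droplets, and without WT CD 2 that of fatty acid oxidation was 0.18. Glucocorticoid-responsive genes, which share Pdk4 and Angptl4 with the PPARα targets, behaved likewise. Of 16, 14 were higher with a median of 0.35, which became 0.09 with 11 higher without WT CD 4 and 0.08 with 10 higher without WT ERTU 11. It rose to 0.62 with 14 higher without WT CD 1. Fkbp5, a glucocorticoid-induced chaperone of the receptor, was at 104, 29.1, 15.4 and 69.0 CPM in WT CD and at 214, 41.6, 38.8, 143 and 25.5 CPM in WT ERTU. Cdkn1a, the cell cycle inhibitor p21, was at 62.3, 20.6, 10.8 and 48.3 CPM in WT CD and at 171, 45.8, 38.7, 102 and 17.9 CPM in WT ERTU. The same libraries were lowest for both, WT CD 4 in one group and WT ERTU 15 in the other, and WT ERTU 11 was highest.

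Genes of ketone use had small differences. Of 14 genes 13 were higher, with a median log2 fold change of 0.10. Oxct1, the enzyme that commits ketone bodies to oxidation, lay at 1641, 1744, 1693 and 1396 CPM in WT CD and at 1750, 1747, 1496, 1508 and 2041 CPM in WT ERTU. Its log2 fold change of 0.08 had an interval from -0.20 to 0.35. Bdh1, which oxidises β-hydroxybutyrate, was at 219, 221, 294 and 232 CPM in WT CD and at 244, 237, 214, 216 and 370 CPM in WT ERTU, where WT ERTU 15 stood above the rest. The hormone gene Fgf21, which the fasted liver releases, had 1 read in all WT CD libraries together and 6 in WT ERTU, with a 2-sided exact permutation p of 0.0952.

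Nuclear-encoded subunits of the respiratory chain, the only ones counted, were higher as a group, again by small amounts. For complex I, which takes electrons from NADH, 35 of 36 subunits were higher with a median log2 fold change of 0.09. For complexes II and III all 13 were higher (median 0.13), for complex IV, the oxidase, all 15 (median 0.13), and for complex V, the ATP synthase, 15 of 16 (median 0.09). The complex IV list of 15 includes Cycs, which encodes cytochrome c and is not a subunit. The values ranged from -0.04 to 0.19 over these lists and none was called. No member had groups that did not overlap, a trait of only 0.326% of all tested genes on the higher side and 0.430% on the lower. Complex I subunits, as a mean log2 level relative to the WT CD mean, stood at 0.09, 0.02, 0.15 and -0.26 in WT CD and at 0.10, 0.08, 0.23, 0.07 and 0.02 in WT ERTU. WT CD 5 was thus the only library of the 9 clearly below the rest. Without it the complex I median was 0.01 with 23 of 36 higher, and that of complex V 0.01 with 9 of 16 higher, while for complexes II and III all 13 stayed higher at a median of 0.06 and for complex IV 14 of 15 at 0.05.

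Ribosomal proteins of the mitochondrion, which translate the subunits its own genome encodes, had small positive values. Of 77 mitochondrial ribosome genes 70 were higher, with a median of 0.09, and without WT CD 5 the median was 0.01 with 44 higher. Mrpl41 had the smallest p of that list. It lay at 29.6, 25.9, 26.8 and 24.7 CPM in WT CD and at 30.0, 30.3, 34.3, 35.2 and 31.8 CPM in WT ERTU, so the groups did not overlap, with a log2 fold change of 0.27 (SE 0.08, interval 0.10 to 0.45). Mrps26 was the other member with separate groups, at 32.1 to 35.9 CPM in WT CD and 36.5 to 44.3 CPM in WT ERTU. These were 2 of 77 members, beside 0.326% of all tested genes with separate groups on the higher side. The TCA cycle (17 of 19 higher, median 0.09) and the breakdown of branched-chain amino acids (20 of 21 higher, median 0.10) lay in the same range, and without WT CD 5 their medians were 0.03 and 0.06. Cytosolic ribosome genes had a median of 0.05 with 62 of 77 higher. That direction rested on single libraries, since the median was 0.01 with 43 higher without WT ERTU 13 and -0.03 with 26 higher without WT ERTU 14.

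The regulators above these pathways had small differences as well. Ppargc1a, the coactivator PGC-1α, was at 163, 128, 117 and 96.5 CPM in WT CD and at 145, 129, 119, 104 and 193 CPM in WT ERTU. Ppara was at 33.0, 27.6, 41.6 and 27.7 CPM in WT CD and at 34.4, 38.6, 28.4, 32.3 and 48.4 CPM in WT ERTU. Esrra, the nuclear receptor ERRα, had one of the tighter estimates, a log2 fold change of 0.06 with an interval from -0.12 to 0.24. Of 23 regulators 15 were higher and the median was 0.04, which became 0.01 without WT ERTU 15. Glycolysis and glycogen genes (18 of 24 higher, median 0.06) and the pyruvate dehydrogenase complex (10 of 13, median 0.08) had small positive medians close to that of the TCA cycle. Without WT ERTU 15 the glycolysis median was 0.02, and without WT CD 5 that of pyruvate dehydrogenase was 0.01 with 7 higher. Coenzyme A synthesis had 5 of 7 higher and a median of 0.03, which became -0.02 without WT CD 5.

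**Figure D3:**
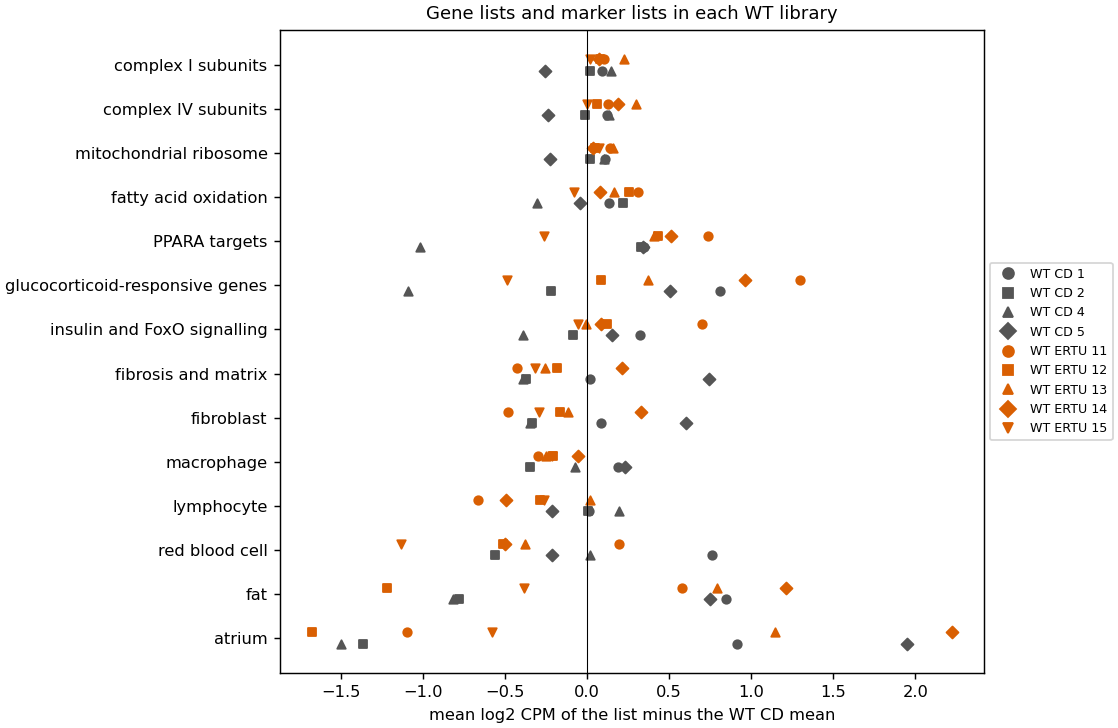
For 14 gene lists and marker lists, the x axis gives the mean log2 CPM of the tested members in each library minus the mean of the 4 WT CD libraries, with WT CD in grey and WT ERTU in orange and a symbol for each library. Complex I sits at -0.26 in WT CD 5 (grey diamond) and the PPARα targets at -1.02 in WT CD 4 (grey triangle).

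Genes of fibrosis and extracellular matrix were mostly lower with ERTU, with 1 untreated library behind much of the difference. Of 34 genes 29 were lower, beside 48.5% of all tested genes, with a median log2 fold change of -0.24, and none was called. Col1a1, the main fibrillar collagen chain, was at 143, 112, 89.2 and 288 CPM in WT CD and at 96.1, 152, 120, 128 and 121 CPM in WT ERTU. Postn, the matrix protein periostin that activated fibroblasts secrete, was at 75.8, 57.6, 51.4 and 169 CPM in WT CD and at 39.0, 52.9, 49.6, 129 and 69.1 CPM in WT ERTU. WT CD 5 was the highest library for both. Without it the log2 fold change of Col1a1 went from -0.35 to 0.11 and that of Postn from -0.38 to 0.14, and the list's median from -0.24 to 0.08 with 21 of 34 higher. Col8a1, a collagen of vessel walls, kept a lower value without it, -0.23 against -0.45 with all libraries. Markers of fibroblasts stood at 0.60 in WT CD 5 relative to the WT CD mean, at 0.08, -0.33 and -0.35 in the other untreated libraries, and at 0.33 in WT ERTU 14, the treated library that was also highest in matrix genes. In bulk tissue fewer cells of a type and less RNA per cell cannot be told apart.

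Genes of hypertrophy and of the fetal program, which failing hearts turn on again, were more often lower than higher. Of 19, 6 were higher and the median was -0.05, which became 0.01 with 10 higher without WT CD 1. Nppa, atrial natriuretic peptide, was at 537, 365, 481 and 259 CPM in WT CD and at 726, 323, 716, 584 and 179 CPM in WT ERTU. Nppb, its ventricular relative, was at 119, 224, 275 and 177 CPM in WT CD and at 388, 284, 228, 212 and 263 CPM in WT ERTU. The groups overlapped for both, and the log2 fold change of Nppb was 0.47 with an interval from -0.02 to 0.96. Myh7, the slow myosin heavy chain, was at 1982, 3720, 1827 and 2797 CPM in WT CD and at 2409, 2366, 2477, 2440 and 1684 CPM in WT ERTU. Myh6, the main adult isoform, had a log2 fold change of -0.02 (SE 0.18). Nfatc2, a transcription factor that calcineurin activates, was lower at -0.40 (SE 0.17), with WT CD 2 at 24.6 CPM well above the other untreated libraries at 16.0 to 17.4 CPM.

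Of 19 calcium handling genes 8 were higher. The median was near 0 with all libraries, -0.10 with 3 higher without WT ERTU 15 and -0.07 with 4 higher without WT CD 5. Atp2a2, the SERCA pump, had a log2 fold change of 0.03 with an interval from -0.31 to 0.36. Slc8a1, the sodium-calcium exchanger, had one of 0.09 with an interval from -0.30 to 0.48. Casq1, the calsequestrin of skeletal muscle, was at 77.0, 74.4, 48.6 and 58.4 CPM in WT CD and at 41.1, 56.9, 34.0, 45.6 and 29.1 CPM in WT ERTU. Its log2 fold change was -0.64 (SE 0.27). Mybpc2, a myosin-binding protein of fast skeletal muscle, was also lower, at -0.51 (SE 0.19). It lay at 118, 117, 58.1 and 98.6 CPM in WT CD and at 96.5, 63.3, 55.1, 79.3 and 49.997 CPM in WT ERTU. Of 10 skeletal muscle markers 6 could be tested, and 5 of these were lower, with a median of -0.30 and none called. Without WT CD 1 the median was 0.04 with 3 higher. The 10 markers of skeletal muscle summed to 349 to 1649 CPM in WT CD and 275 to 1339 CPM in WT ERTU. Acta1, also a member of the hypertrophy and fetal list, made up most of these sums, at means of 725 CPM in WT CD and 586 CPM in WT ERTU. Myh1, Myh2, Myh4 and Tnnc2 were too low to test.

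The genes with the most distinct groups were few and none was called. Genes whose 2 WT groups did not overlap numbered 53 (0.326%) on the higher side and 70 (0.430%) on the lower side of all tested genes, and 37 (0.284%) and 51 (0.391%) at a mean log2 CPM of at least 1. Among the 10 largest falls in value at that level were Ighm, Dhx58, Tlr2 and Pik3ap1, which immune cells express. Ighm, the constant region of the IgM heavy chain on chr12:113418558-113422730, had the smallest p of all genes at that level. It lay at 12.5, 13.1, 13.8 and 15.003 CPM in WT CD and at 7.02, 7.41, 8.997, 9.28 and 9.28 CPM in WT ERTU. Every treated library was below every untreated one, by a wide gap, with a log2 fold change of -0.69 (SE 0.16, interval -1.02 to -0.37) and an adjusted p of 1.00.

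Tlr2, the receptor for bacterial lipoproteins, lay at 6.81, 8.49, 7.93 and 7.03 CPM in WT CD and at 4.50, 4.35, 4.99, 5.82 and 6.31 CPM in WT ERTU (log2 fold change -0.54, SE 0.16). Pik3ap1, an adaptor of B cell and Toll-like receptors, lay at 6.57, 5.13, 6.54 and 5.59 CPM in WT CD and at 2.58, 4.07, 5.10, 4.35 and 4.32 CPM in WT ERTU (-0.54, SE 0.19). For both, the highest treated library came close to the lowest untreated one. Dhx58, the RNA sensor LGP2, had a log2 fold change of -0.62 (SE 0.21). Fgd2, a guanine nucleotide exchange factor of antigen-presenting cells, had one of -0.59 (SE 0.16), with 1 treated library, WT ERTU 13 at 4.22 CPM, above the lowest untreated library, WT CD 2 at 4.16 CPM.

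Of 10 macrophage markers 9 had lower values, with a median log2 fold change of -0.22 and none called. Without WT CD 5 the median was -0.11 with 3 higher. Adgre1, the macrophage surface protein F4/80, was at 13.7, 12.6, 14.6 and 15.8 CPM in WT CD and at 9.65, 12.5, 11.7, 12.7 and 9.99 CPM in WT ERTU. Fcgr1, the high-affinity IgG receptor, was at 2.25, 1.94, 2.37 and 1.76 CPM in WT CD and at 0.720, 1.34, 1.54, 0.734 and 1.93 CPM in WT ERTU. WT ERTU 14 and 15 alone reached into the untreated range, each for 1 of the 2 genes. The 10 markers summed to 379 to 607 CPM in WT CD and 419 to 561 CPM in WT ERTU, which overlapped fully.

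Lymphocyte markers summed to 16.5 to 19.1 CPM in WT CD and 9.59 to 12.8 CPM in WT ERTU without overlap, and Ighm made up most of that sum. Of 10, 6 could be tested, with Cd3e, Cd3d, Cd8a and Ms4a1 too low, and 5 of the 6 had lower values, with none called. The list's median of -0.41 became -0.03 without WT CD 4, a fit in which 7 markers were tested and 3 were higher. The B cell receptor gene Cd79b lay at 0.342 to 0.579 CPM in WT CD and 0.0557 to 0.384 CPM in WT ERTU. Cd79a had the opposite sign, with a log2 fold change of 0.31. Red blood cell genes had lower values in 7 of 7 (median -0.43), but without WT CD 1 the median was -0.18 with 1 higher. Their sum ran from 677 to 1496 CPM in WT CD and from 411 to 1055 CPM in WT ERTU. The part of blood left in the tissue in the lower values of these lists was not tested. The other marker lists turned with single libraries. Of 10 fibroblast markers 7 were lower (median -0.10), as were 7 of 10 for smooth muscle and pericytes (-0.09) and 5 of 6 for Schwann and neural cells (-0.13), and without WT CD 5 these medians were 0.14, 0.04 and 0.19. Of 10 cardiomyocyte markers 7 were higher (0.06), which became 3 of 10 (-0.04) without WT CD 5. For the atrium 4 of 7 were lower (median -0.0004), and the median was 1.11 without WT CD 5 and -1.13 without WT ERTU 14. Endothelial markers were higher in 6 of 10 (0.02, and -0.03 without WT CD 1), fat markers in 5 of 7 (0.23, and -0.04 without WT ERTU 14) and mesothelial markers in 5 of 6 (0.23, and -1.39 without WT ERTU 14). No marker of any of these lists was called.

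Inflammation as a list had no common direction. Of 23 tested cytokine, chemokine and receptor genes 12 were higher and the median was 0.04, which was below 0 in 7 of the 9 fits without 1 library, down to -0.10 without WT ERTU 15. Cx3cr1, the fractalkine receptor of monocytes, was at 3.17, 9.29, 8.05 and 8.47 CPM in WT CD and at 2.64, 5.35, 5.05, 3.99 and 5.22 CPM in WT ERTU, so WT CD 1 lay among the treated libraries. Ccl2, the monocyte chemoattractant, had a log2 fold change of 0.79 in the other direction. Of 26 interferon-stimulated genes 16 were lower (median -0.08), while without WT CD 5 the median was 0.01 with 14 higher. Ifit3, the member with the smallest p, had a log2 fold change of -0.46 (SE 0.21).

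**Figure D4:**
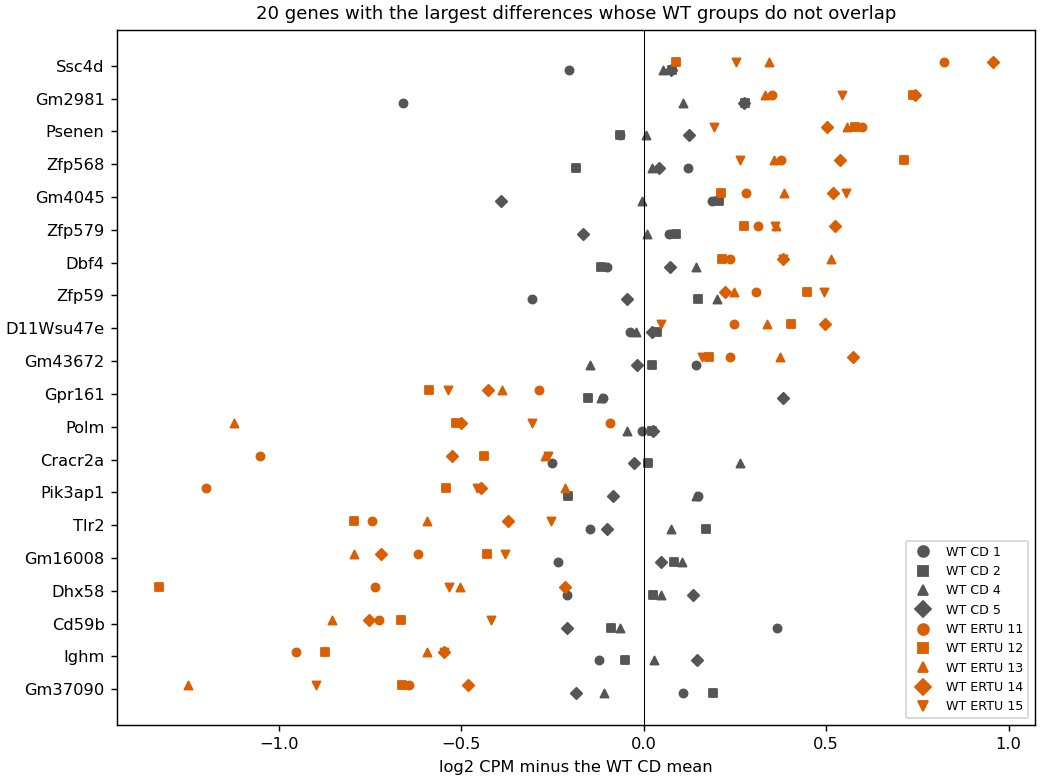
The 10 largest rises and 10 largest falls in value among genes with a mean log2 CPM of at least 1 whose WT groups do not overlap, drawn as log2 CPM minus the WT CD mean on the x axis, with 1 symbol per library, WT CD in grey and WT ERTU in orange. The gap between the groups is widest for Ighm and small for genes such as Cracr2a, Gm4045 and D11Wsu47e.

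On the higher side, Psenen had the smallest p. It encodes a subunit of γ-secretase, the protease that releases the active fragment of Notch, and lies on chr7:30561863-30563627. Its values were 4.84, 4.84, 5.09 and 5.52 CPM in WT CD and 7.68, 7.58, 7.46, 7.18 and 5.80 CPM in WT ERTU. Each treated library exceeded each untreated one, WT ERTU 15 by little, and the log2 fold change was 0.49 (SE 0.12, interval 0.24 to 0.75). Zfp568, Zfp579 and Zfp59, which encode zinc finger proteins, are also on chromosome 7. Zfp568 was at 30.3, 24.4, 28.3 and 28.6 CPM in WT CD and at 36.1, 45.6, 35.6, 40.4 and 33.4 CPM in WT ERTU. Zfp579 was at 5.59 to 6.67 CPM in WT CD and 7.58 to 9.02 CPM in WT ERTU, and Zfp59 at 4.04 to 5.73 CPM and 5.82 to 7.02 CPM.

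Most of the other genes named for separate groups lay below 12 CPM in every WT library. Ssc4d, a scavenger receptor gene, lay at 1.499 to 1.82 CPM in WT CD and 1.84 to 3.36 CPM in WT ERTU. Dbf4, the regulatory subunit of the kinase that fires replication origins, lay at 1.595 to 1.91 CPM in WT CD and 2.01 to 2.47 CPM in WT ERTU. Gm43672 lay higher, at 14.5 to 17.8 CPM in WT CD and 17.976 to 23.96 CPM in WT ERTU. D11Wsu47e, Gm2981, Gm4045 and Gm43672 had log2 fold changes of 0.32, 0.51, 0.37 and 0.31. Gm37090 (-0.77) and Gm16008 (-0.59) overlap each other on the minus strand of chromosome 4, at chr4:156018556-156022660 and chr4:156022008-156031643, so their reads may not be independent. Cd59b, an inhibitor of complement (-0.69), is a near copy of Cd59a, and reads unique to it were the only ones counted. Cracr2a, a calcium-binding regulator of store-operated channels (-0.49), Polm, a repair polymerase (-0.47), and Gpr161, a receptor of the primary cilium (-0.46), complete the set. Trim16, a ubiquitin ligase, was named for its small p (-0.54), and its groups overlapped, with WT ERTU 12 just above WT CD 1.

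Stress and growth genes had few members with small p values. Of 28 antioxidant genes 25 were higher (median 0.09, and 0.04 with 20 higher without WT ERTU 11). Nfe2l2, the transcription factor NRF2 that controls many of them, was at 77.6, 71.7, 71.9 and 79.2 CPM in WT CD and at 89.9, 89.1, 93.6, 91.0 and 73.5 CPM in WT ERTU. In 4 of 5 treated libraries it exceeded every untreated one. Among 20 heat shock genes 18 were higher (median 0.07), against 12 (0.03) without WT ERTU 11 and 11 (0.04) without WT CD 5. Hspb1, the small chaperone HSP27, was at 71.3 to 89.8 CPM in WT CD and at 161, 91.5, 88.4, 95.3 and 90.1 CPM in WT ERTU. WT ERTU 11 stood apart, and without it the log2 fold change of Hspb1 went from 0.39 to 0.18. The integrated stress response (11 of 14 higher, median 0.13) and the insulin and FoxO list (18 of 21, median 0.13) were also highest in WT ERTU 11, and without it their medians were 0.01 and -0.01. Without WT CD 4 they were 0.07 and 0.04. Gdf15, a stress hormone, was at 1.21 to 1.97 CPM in 4 treated libraries and 4.96 CPM in WT ERTU 15.

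Among cell cycle genes, 13 of 20 were higher with a median of 0.14, which became 0.02 with 11 higher without WT CD 1 or without WT ERTU 15. Pcna, the replication clamp, was at 32.7, 32.1, 34.6 and 29.1 CPM in WT CD and at 33.8, 36.9, 37.7, 40.5 and 38.5 CPM in WT ERTU, with WT ERTU 11 inside the untreated range. Of 19 immediate early genes, which respond within minutes to stimulation, 9 were higher, with a median of -0.07 that became 0.09 without WT CD 4 and 0.13 without WT CD 5. Fosb was at 0.577, 0.684, 3.99 and 0.816 CPM in WT CD and at 1.56, 0.390, 0.384, 0.367 and 0.515 CPM in WT ERTU, and without WT CD 4 its log2 fold change went from -1.25 to -0.11. Clock genes (7 of 18 higher, median -0.08), iron handling (6 of 17, median -0.02) and the mTOR, AMPK and autophagy list (14 of 25, median 0.02) had small medians, and the last was -0.04 without WT ERTU 11. Iron handling was at 0.04 without WT ERTU 14.

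The same drug in Gαq hearts gave the list medians set beside those of WT here. The WT and Gαq effects share no libraries. Over 16270 genes they had the same sign in 60.5% of cases, with a Spearman correlation of 0.27 across genes, which are not independent replicates. The interaction test of the same model, which asks whether the effect of ERTU differs between the genotypes, called 0 genes. At an unadjusted p under 0.05 there were 313 (1.92%). DESeq2 gave 412 of 30758 genes tested and limma voom 953 of 16270 at that level, and both also called none. In Gαq the test called 1 gene (0.00615%), 48.9% of genes were higher with ERTU, and 1240 (7.62%) were at an unadjusted p under 0.05, against 365 in WT.

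PPARα targets had medians of 0.21 in WT and 0.54 in Gαq, fatty acid oxidation of 0.11 and 0.20, fatty acid uptake and lipid droplets of 0.24 and 0.40, and glucocorticoid-responsive genes of 0.35 and 0.80. Fibrosis and matrix were at -0.24 in both. Complex I was at 0.09 and 0.07. These WT medians also moved with single libraries. Without WT CD 4 they were 0.05 for the PPARα targets, 0.05 for fatty acid oxidation, 0.10 for uptake and lipid droplets and 0.09 for glucocorticoid-responsive genes. Without WT CD 5 they were 0.08 for fibrosis and matrix and 0.01 for complex I. No fit left out a Gαq library, so the like range of the Gαq medians is not known. The cell cycle was at 0.14 in WT and -0.53 in Gαq, and red blood cell genes at -0.43 and 0.40, and in both the WT value depended on single libraries as given above. Inflammation was at 0.04 and -0.32, where most WT fits without 1 library gave a value below 0. No member of these lists was called by the interaction test. For Psenen the log2 fold change was 0.49 in WT and 0.00 in Gαq, and for Ighm -0.69 and -0.32, with interaction adjusted p values of 1.00.

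**Figure D5:**
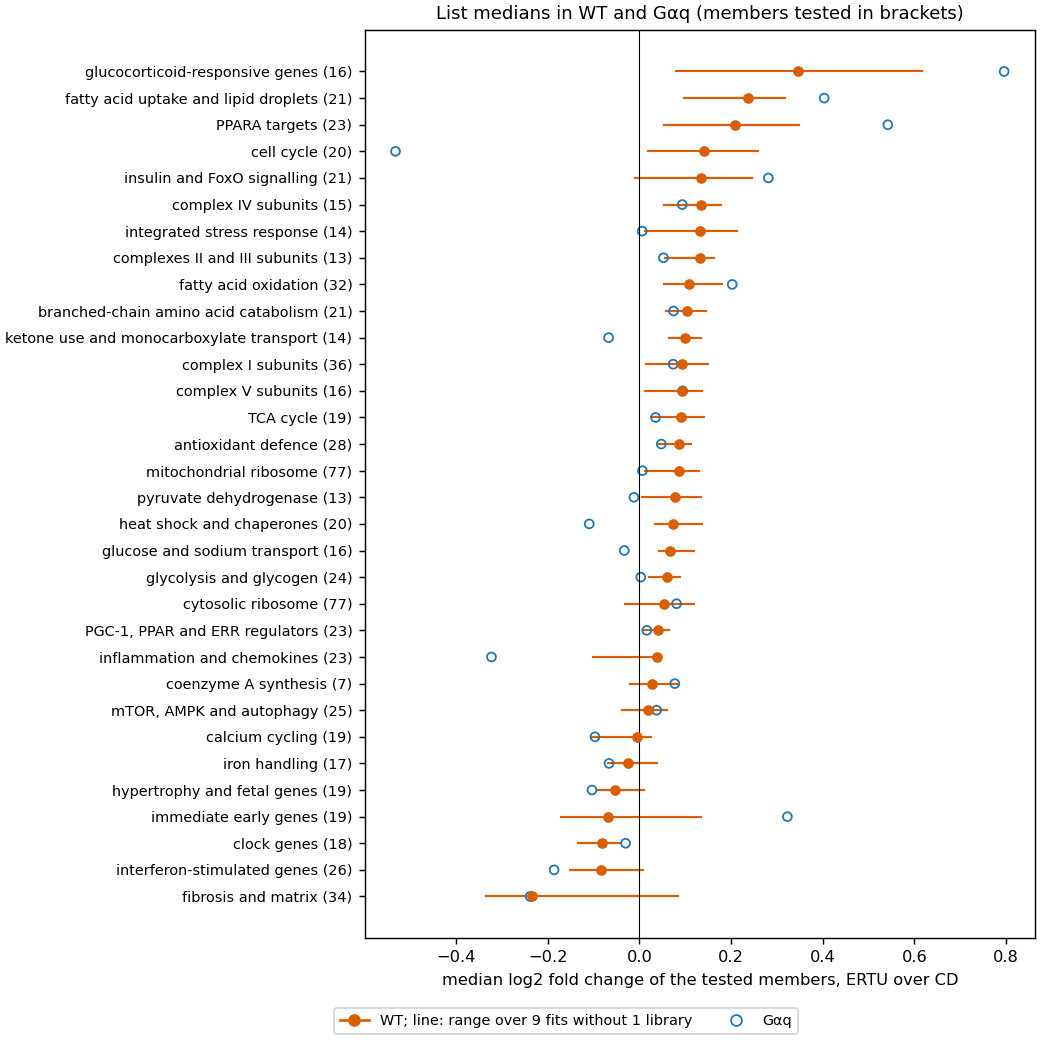
Median log2 fold change of ERTU over CD of the tested members of 32 gene lists, with the WT value as a filled orange point, its range over the 9 fits that each leave out 1 WT library as an orange line, and the Gαq value as an open blue circle. The line crosses 0 for fibrosis and matrix, whose median without WT CD 5 was 0.08, and stays above 0 for the respiratory complexes and the PPARα targets.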

How the data were processed

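RNA was taken from frozen left ventricle powder, and poly(A) libraries were sequenced as paired 100-base reads. Per the labels and methods, the authors aligned reads with STAR 2.6.0c to mm10 and made raw counts of uniquely aligned proper pairs per nuclear-encoded Ensembl gene with featureCounts of Subread 1.6.2, checked with FastQC 0.11.7. The authors also deposited variance-stabilized log2 values made with DESeq2, used here only as an alternative for list levels.

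Using edgeR 4.0.16 in R 4.3.3, deposited counts passed through filterByExpr on the 4 groups, TMM scaling, 1 mean per group over 18 libraries, and the quasi-likelihood test of WT ERTU minus WT CD with Benjamini-Hochberg adjustment over 16270 genes. SEs were derived from the fold change and the F statistic. The genes left out held 0.0837% of WT counts. CPM are TMM-scaled. List levels are mean log2 CPM with a prior count of 2. Of the gene IDs, 99.4% had a symbol in a separate list of gene names. Positions came from GENCODE M21 (GRCm38, the sequence of mm10). Promoters came from the RefSeq table of GRCm38.p6.

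The members, gene lists and tests were chosen with earlier results of these data known. Named were a panel of 29 fuel, remodelling and target genes (its other members are not reported here), the 10 largest rises and falls with groups apart and a mean log2 CPM of at least 1, the 5 smallest p at that level, and, per list, up to 4 members with an unadjusted p under 0.05. Ehhadh, Fkbp5, Cdkn1a, Myl7, Mrps26, Cd79a, Cd79b and Ccl2, and the genes among the other observations, were named after their values were seen. The results of 32 pathway lists and 12 marker lists are given as counts and medians.

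Tried in place of these were scaling by DESeq2's size factors, testing every gene, a mean CPM of at least 1, the Wald test of DESeq2 1.42.0, voom from limma 3.58.1 weighting each library, a fit of the WT libraries alone, and leaving out each WT library. The script was tested on simulated data. Libraries are taken as separate mice, as the methods state hearts per group. The p values of the model rest on the spread between libraries within all 4 groups, so the Gαq libraries also enter those of the WT comparison. No pair of libraries agreed within sampling noise (chi-square per gene of 11.7 to 57.5).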

Additional observations from a re-analysis of the deposited data

Results flagged for a closer look

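In 21 cases of 222 tested, 1 library stood apart from the others of its group, by a gap to its nearest neighbour that took most of the group's range. A rate of 1 in 20 would give 11.1 of 222. The cases share genes and libraries and are not independent, so an excess over that rate was not tested. The interaction test called no gene for a difference between the genotypes in the effect of ERTU.

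WT CD 4 stood apart for Pdk4 (gap of 0.875 of the range, at 166 CPM against 3500 to 3976), Pank1 (0.960, at 59.3 CPM against 105 to 107), Fosb (0.930, at 3.99 CPM against 0.577 to 0.816) and the PPARα target list (0.985). WT CD 5 stood apart for Gpr161 (0.937, at 10.5 CPM against 7.24 to 7.44), Col8a1 (0.834, at 75.4 CPM against 43.1 to 48.4) and complexes II and III (0.859). WT CD 1 was low for Ssc4d (0.912), and WT CD 2 was high for Nfatc2 (0.839) and held the only Fgf21 read of its group (a gap of the whole range, 1).

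WT ERTU 15 was high for Bdh1 (0.807, at 370 CPM against 214 to 244) and Gdf15 (0.795). It was low for Myh7 (0.860, at 1684 CPM against 2366 to 2477), Psenen (0.738), Nfe2l2 (0.775) and its total count (0.711, 16075634 against 18036131 to 18834963). WT ERTU 11 was high for Hspb1 (0.904, at 161 CPM against 88.4 to 95.3), Fosb (0.876), the insulin and FoxO list (0.765) and the integrated stress response (0.721). WT ERTU 14 was high for Timp1 (0.822, at 2.25 CPM against 0.580 to 0.878).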

How the results depend on the processing

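No gene was called for ERTU in WT, or for its difference from ERTU in Gαq, under any alternative run. At an unadjusted p under 0.05 for WT, the fits with all libraries gave from 289 of 14419 genes to 811 of 30773. Those without 1 library gave 338 to 573. The count of genes whose groups do not overlap was 80 higher and 117 lower with no filter, where more genes are counted, and 96 to 184 higher and 117 to 234 lower without 1 library, where fewer samples must separate. With limma voom the median of the inflammation list became -0.11, and Myh6 (0.00684), Nppa (-0.00851) and Slc5a1 (-0.00889) changed sign. Without 1 library the list medians ranged from -0.50 to -0.025 for lymphocyte, -0.66 to 0.039 for skeletal muscle and -1.39 to 0.56 for mesothelium markers. The highest lymphocyte value was without WT CD 4, where 7 markers were tested against 6 with all libraries. The lowest skeletal muscle value was without WT ERTU 11, with 5 tested against 6. The lowest mesothelium value was without WT ERTU 14. Taking the median of members for the list level gave 0.40 for ketone use, -0.14 for glucose and sodium transport, -0.059 for the mTOR list and 0.10 for skeletal muscle, beside mean levels of 0.17, 0.05, 0.03 and -0.27. Of 64 named genes, 45 kept their sign in every alternative. The log2 fold changes of genes that changed sign in a fit without 1 library ranged as follows: Acta1 from -0.78 to 0.36, Atp2a2 from -0.065 to 0.097, Bdh1 from -0.084 to 0.20, Col1a1 from -0.55 to 0.11, Cpt1a from -0.20 to 0.25, Cpt1b from -0.052 to 0.34, Gdf15 from -0.32 to 0.36, Gnaq from -0.53 to 0.35, Myh6 from -0.091 to 0.081, Myh7 from -0.31 to 0.047, Pank1 from -0.0091 to 0.25, Postn from -0.75 to 0.14, Ppargc1a from -0.020 to 0.28, Slc2a4 from -0.049 to 0.16, Slc8a1 from -0.10 to 0.17, Timp1 from -0.80 to 0.18, Ucp3 from -0.29 to 0.29. The cause was not tested for these. Median-of-ratios scaling moved the median of all genes from 0.0052 to 0.011 and gave 64 higher and 64 lower genes without overlap, against 53 and 70. No paired analysis was possible because column numbers run through all groups and differ from the labels' replicate numbers. Precision limits the result: for 34.1% of tested genes the 95% interval reached beyond a 1.5-fold change. The part of depth and of the number of libraries in this was not tested.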

Other observations

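The genes below were chosen after their values were seen. Mid1, an X-linked ubiquitin ligase of microtubules, had 2 levels among the libraries. It lay at 3.69, 4.22, 4.92 and 4.65 CPM in WT CD and at 2.70, 17.2, 14.9, 14.9 and 15.01 CPM in WT ERTU. Its log2 fold change was 1.57 (SE 0.50) with an adjusted p of 1.00 by edgeR's quasi-likelihood test. In Gαq CD it lay at 4.30, 5.90, 6.73, 4.35 and 13.9 CPM and in Gαq ERTU at 4.08, 4.99, 4.18 and 18.02 CPM, so the higher level also occurred in 1 untreated library. The log2 fold change in Gαq was 0.16 (SE 0.47).

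Nmrk2, a kinase of NAD synthesis, was at 19.7 CPM in WT CD 4 and 23.6 CPM in WT ERTU 15 and between 1.42 and 9.63 CPM in the other WT libraries. Rtn4r, the Nogo receptor, was at 15.8 CPM and 20.7 CPM in the same libraries and at 1.595 to 4.96 CPM in the rest. These were also the libraries lowest in Acot1, an acyl-CoA thioesterase, at 6.19 CPM and 12.3 CPM against 52.3 to 114 CPM elsewhere.

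Ankrd37, which hypoxia induces, was at 3.20 to 6.66 CPM in WT CD and at 4.62, 10.3, 9.49, 16.7 and 6.89 CPM in WT ERTU. Its log2 fold change was 0.97 (SE 0.29). Fyb, an adaptor of T cells and macrophages, was at 5.92 to 7.24 CPM in WT CD and 4.74 to 5.41 CPM in WT ERTU, without overlap, with log2 fold changes of -0.39 in WT and -0.48 in Gαq. Alb, the liver's albumin gene, was at 15.4 CPM in WT ERTU 14 and at 0 to 1.79 CPM in the other WT libraries.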
